A study of Mus musculus with 4 samples.

Results

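Transcripts of 7 tetraspanin genes (Cd9, Cd63, Cd81, Cd82, Cd37, Cd53 and Cd151) were measured in single cells sorted from normal and infarcted mouse hearts. The genes were taken by name from the gene lists of the 4 libraries, where each of the 7 symbols matched 1 of 31053 genes. The 7 were chosen with earlier results of these data known. All groups came from CSF1R-EGFP (MacGreen) mice aged 12 to 16 weeks, in which the Csf1r promoter drives EGFP in cells of the mononuclear phagocyte lineage, and EGFP+ Ly6G- cells were sorted before 10x 3′ library preparation. Hearts without surgery gave the baseline group, where 3 of them were pooled into 1 library. The infarct group was 3 libraries, 1 heart each, taken 7 days after ligation of the left coronary artery with the remote myocardium cut away. Baseline and infarct differ in surgery, in pooling and in the tissue dissected, which cannot be told apart, and the baseline group has no replicate, so no test between the groups was made.

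Tetraspanins are small proteins that cross the membrane 4 times and gather integrins, immunoglobulin superfamily proteins and proteases into membrane microdomains. CD63 cycles between the plasma membrane and late endosomes and lysosomes, and CD63, CD9 and CD81 are the usual marker proteins of extracellular vesicles. CD9 and CD81 are reported to restrain the fusion of macrophages into multinucleated cells. CD82 is known as a suppressor of metastasis and is also found in late endosomes, and CD151 binds the laminin-binding integrins. CD37 and CD53 are restricted to blood cells, with CD37 best known from B cells and CD53 found on nearly all leukocytes.

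The 4 libraries held 10144 to 10804 barcodes and 71093963 to 97944428 UMIs (unique molecular identifiers, each standing for 1 captured RNA molecule). After the study's stated limits on UMIs and genes per cell, 10117 to 10782 cells per library were kept, with a median of 6398.5 UMIs per cell in the baseline library and 8469.5 to 8556.5 in the infarct libraries. Pairs of libraries shared 26 to 34 barcodes. The members' own counts per library ran from 1713 UMIs for Cd151 in the baseline library to 90590 for Cd63 in infarct 2. Levels below are CPM, UMIs of the gene per 1000000 UMIs summed over a group of cells, with mitochondrial genes left out of the sum. Cells with over 10% mitochondrial UMIs made up 11.53% of the baseline library and 6.669 to 9.034% of the infarct libraries.

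Cells were placed in myeloid types when they held at least 3 different markers of a marker list and more than of any competing list, and no tetraspanin was a marker. The types took 76.03 to 86.46% of the kept cells. Resident-like macrophages (Lyve1, Folr2, Timd4) were 2766 cells at baseline and 79, 65 and 106 in infarct 1 to 3. Macrophages with Gpnmb, Trem2 and Spp1, the markers of lipid-handling macrophages, were 204 cells at baseline and 3541, 5173 and 4292 after infarction. Macrophages with Saa3 and Arg1 were 7 cells at baseline and 568, 56 and 410 after infarction, and macrophages with no further list were 3147 against 2416, 3105 and 2895. The sort excluded Ly6G+ neutrophils, yet 52 to 88 granulocyte-like cells remained in each library. Between 6.114% (classical monocyte-like) and 34.29% (Saa3 and Arg1) of the cells of a type lay exactly at the 3-marker limit.

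All 7 genes lie on autosomes of the mouse genome (GRCm38). Cd63 spans chr10:128900989-128912822 on the plus strand, Cd81 chr7:143052739-143067934 and Cd151 chr7:141467392-141471473, both on the plus strand. The remaining members lie on the minus strand, Cd9 at chr6:125460266-125494791, Cd82 at chr2:93419111-93463140, Cd37 at chr7:45233632-45239115 and Cd53 at chr3:106759921-106790149. No member shares exon sequence with another annotated gene on its own strand, so UMIs that respect strand belong to 1 gene each. The sequences before the RefSeq starts of Cd63, Cd81 and Cd53 are shown because Cd63 and Cd81 had the widest spans of level among the myeloid types of the infarct libraries and the pattern of Cd53 was the least like that of Cd63. The RefSeq start of Cd63 lies inside the wider gene span given above, so its window is also inside that span. The Cd81 window is printed only up to its wider gene span, as 239 of the 250 bases searched. The part left out holds most of a further GC box. The sequences come from RefSeq (GRCm38.p6), read 5′ to 3′ on the gene's own strand, and capitals mark GC boxes (GGGCGG, or CCGCCC on the other strand).
Cd63 (chr10:128909095-128909344, plus strand): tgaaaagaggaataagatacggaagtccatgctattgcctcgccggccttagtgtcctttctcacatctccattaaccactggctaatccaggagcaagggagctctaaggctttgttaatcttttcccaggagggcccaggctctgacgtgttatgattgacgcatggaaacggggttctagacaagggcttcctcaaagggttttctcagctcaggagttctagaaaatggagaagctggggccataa
Cd81 (chr7:143052500-143052738, plus strand): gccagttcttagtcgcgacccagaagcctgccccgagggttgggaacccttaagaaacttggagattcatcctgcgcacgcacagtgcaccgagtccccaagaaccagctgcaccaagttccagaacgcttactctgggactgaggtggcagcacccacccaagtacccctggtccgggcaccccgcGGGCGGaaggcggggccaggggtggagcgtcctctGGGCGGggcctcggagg
Cd53 (chr3:106790150-106790399, minus strand): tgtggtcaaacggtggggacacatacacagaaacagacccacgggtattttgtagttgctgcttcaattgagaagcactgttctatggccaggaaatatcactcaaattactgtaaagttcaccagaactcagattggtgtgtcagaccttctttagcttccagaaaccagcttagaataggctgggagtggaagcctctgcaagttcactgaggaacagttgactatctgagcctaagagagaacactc

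The 250 bases before each RefSeq start were searched on both strands for 5 motifs. These were the E-box CACGTG, the lysosomal CLEAR element core TCACGTGA that contains it, the PU.1 core GAGGAAGT of myeloid genes, the GC box and the AP-1 site TGACTCA. Over 32851 such windows the E-box was present in 6.02%, the CLEAR core in 0.785%, the PU.1 core in 2.44%, the GC box in 32.7% and the AP-1 site in 4.46%. GC boxes stood in at least 1 window of Cd9, Cd81, Cd82, Cd37 and Cd151. Cd37 alone among the members held an E-box, and a PU.1 core was found in windows of Cd37 and Cd82. None of these letters was present in the windows of Cd63 and Cd53. The CLEAR core and the AP-1 site were in no window of a member.

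Over all kept cells, Cd63 and Cd9 were higher and Cd81 was lower in every infarct library than in the baseline library, and Cd53 was moderately higher. Cd63 was at 358.9 CPM at baseline (95% binomial interval 354.4 to 363.5) and at 726.2, 965.2 and 861.5 in infarct 1 to 3. The infarct mean was 851.0 ± 119.8 CPM (SD, n = 3), 2.371-fold the baseline value. Cd81 was at 608.4 CPM at baseline (602.6 to 614.3) and at 205.9, 289.6 and 243.6 after infarction. Its infarct mean of 246.4 ± 41.92 was 0.4049 of the baseline value, and no infarct library came near the baseline one.

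**Figure D1:**
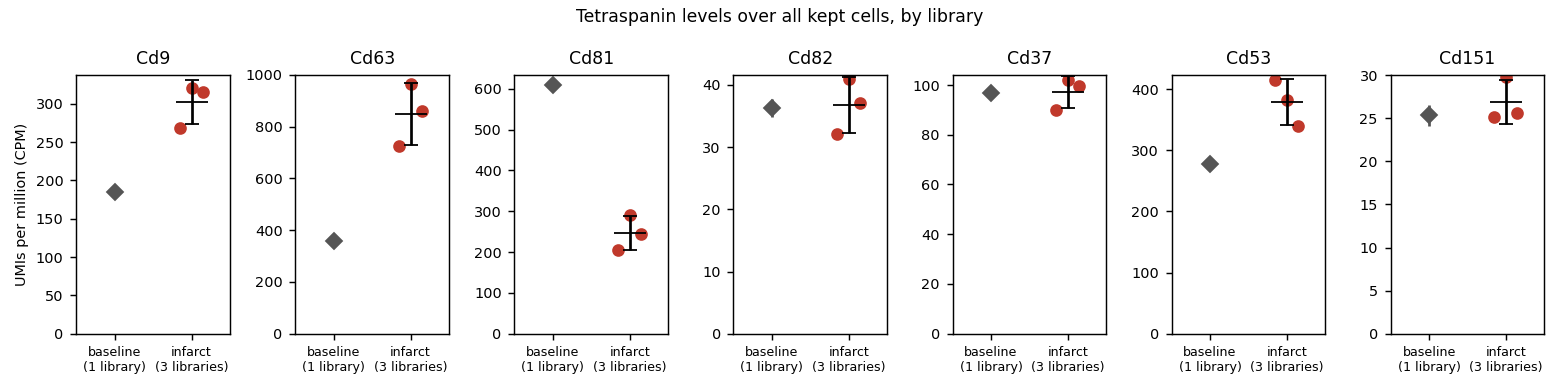
CPM of each tetraspanin over all kept cells, with the baseline library as a diamond (bar: 95% binomial interval) and the 3 infarct libraries as points (dash and bar: mean and SD, n = 3). Each panel has its own axis from 0. Cd63 stood at 726.2 to 965.2 CPM in the infarct libraries against 358.9 at baseline, and Cd81 at 205.9 to 289.6 against 608.4.

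Cd9 was at 184.4 CPM at baseline and at 269.0, 321.1 and 316.1 after infarction, a mean of 302.1 ± 28.75 (SD, n = 3) and 1.638-fold the baseline value. Cd53 was at 277.0 CPM at baseline and at 415.5, 382.0 and 340.5 after infarction. The other members had the baseline value inside the infarct range: Cd82 at 36.24 against 32.17 to 41.02, Cd37 at 96.85 against 90.09 to 102.1 and Cd151 at 25.34 against 25.17 to 29.79. A gap of at least 2-fold with all infarct libraries on one side was seen for 2 of the 7 members, Cd63 above and Cd81 below, and for 8.04% of 7876 genes with at least 10 CPM (2.02% above and 6.02% below). All infarct libraries lay on one side of the baseline library for 86.7% of those genes, so being on one side alone sets a member apart from few genes. The median log2 ratio of infarct over baseline across those genes was −0.19, or 0.09 after TMM scaling, so the 3 members with small gaps are not given a direction. In such sums, fewer cells of a type and less RNA per cell cannot be told apart. The makeup moved with these levels. Gpnmb and Trem2 macrophages were 1.993% of baseline cells and 41.49 ± 7.007% of infarct cells (SD, n = 3), and resident-like macrophages 27.02% and 0.8036 ± 0.2257%. The part of makeup in the all-cell values was not tested, and values within types follow.

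Among the 3 infarct libraries, each type with at least 20 cells in every library was compared with all other myeloid cells of the same hearts. All 7 members passed the filter on low counts in each of the 9 comparisons, and 45 of the 63 tests passed an adjusted p of 0.01, with 13 higher and 32 lower. Per type, resident-like macrophages had 3 members called, where 11.1% of all genes tested were, with 1 higher (all genes 5.34%) and 2 lower (5.77%). The Gpnmb and Trem2 macrophages had 4 called (all genes 23.3%), all of them higher (11%, and 12.3% of genes lower). The Saa3 and Arg1 macrophages had 4 called (19.6%), 1 higher (10.5%) and 3 lower (9.05%), and the other macrophages 5 (28.9%), 2 higher (12.2%) and 3 lower (16.7%). Classical monocyte-like cells had 6 called (30.7%), each of them lower (15.2%, and 15.5% of genes higher), and non-classical monocyte-like cells 5 (21.2%), 1 higher (10.1%) and 4 lower (11.1%). Type 2 dendritic-like cells had 6 called (36.2%), 1 higher (16.8%) and 5 lower (19.4%), and mature dendritic-like cells 6 (23.6%), each of them lower (13.4%, and 10.2% of genes higher). Granulocyte-like cells had 6 called (16.8%), 3 higher (6.29%) and 3 lower (10.5%). Per gene, Cd9, Cd63 and Cd81 were called in 8 of 9 types, Cd82, Cd37 and Cd151 in 6, and Cd53 in 3. The share of all genes called in that many types was not counted, so these counts are not read as particular to the members. Each comparison uses the same cells in turn as type and as remainder, so the 9 are not independent.

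**Figure D2:**
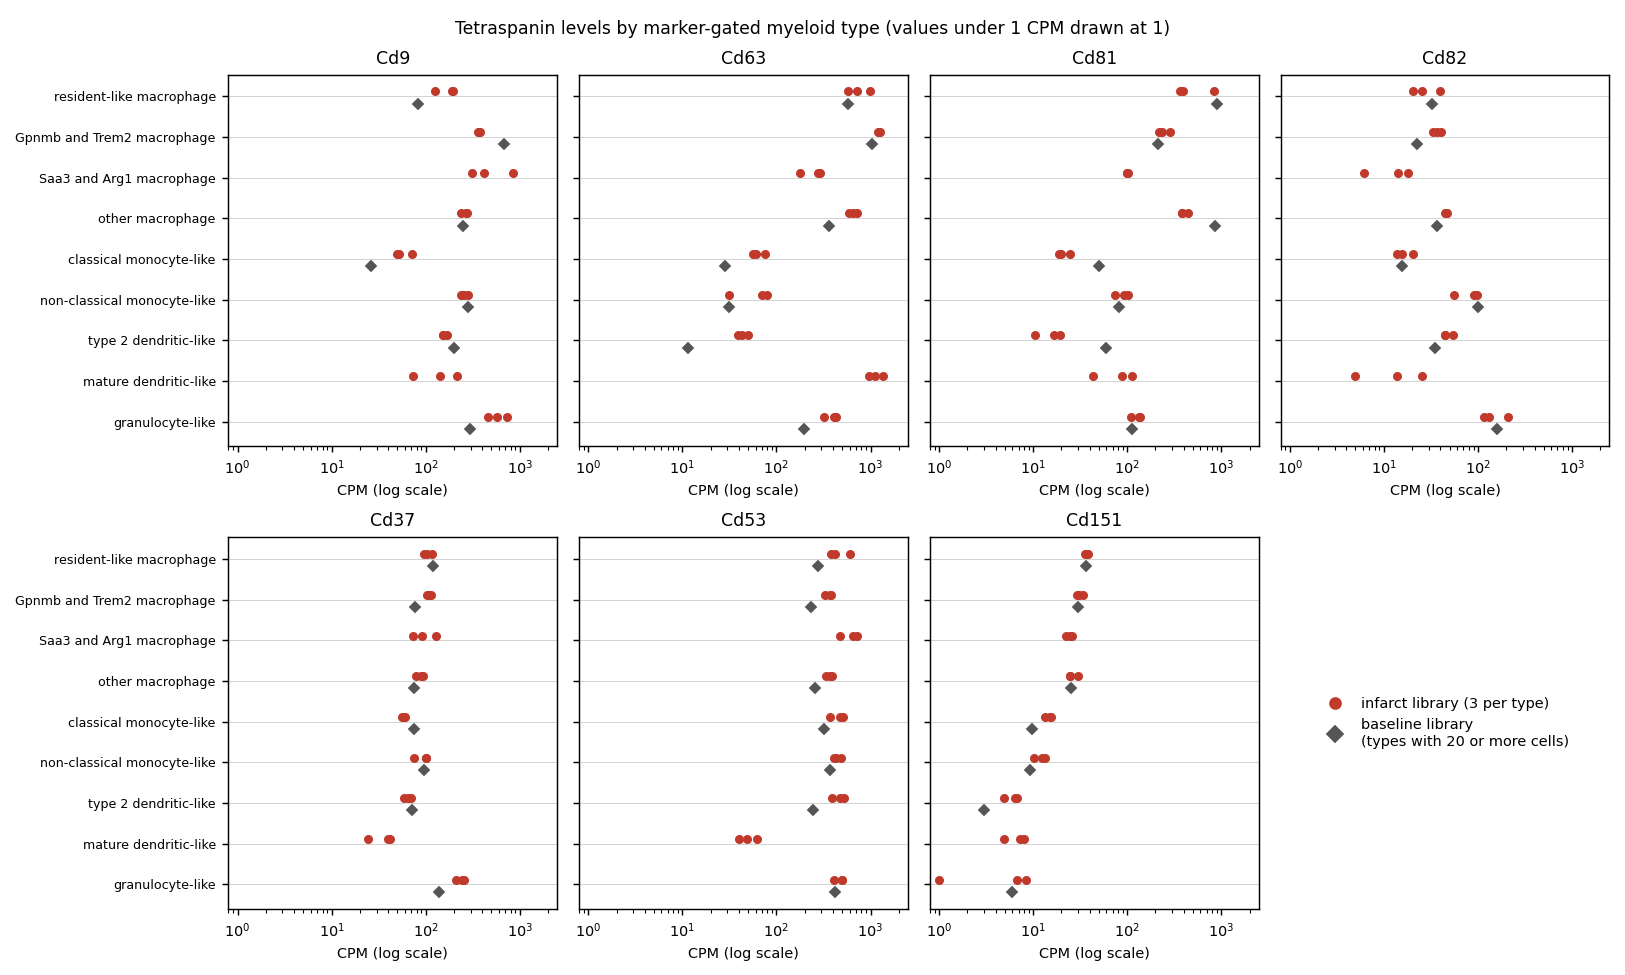
CPM of each tetraspanin in the 9 gated myeloid types on a log axis, with 1 point per infarct library and a diamond for the baseline library where it held at least 20 cells of the type; a value under 1 CPM is drawn at 1. Cd63 ran from 1237 CPM in Gpnmb and Trem2 macrophages to 43.84 in type 2 dendritic-like cells (infarct means), and Cd53 stood apart in mature dendritic-like cells at 39.75 to 61.7 CPM.

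Cd63, the late endosomal member, separated macrophages and mature dendritic-like cells from monocyte-like and type 2 dendritic-like cells. In Gpnmb and Trem2 macrophages it was at 1223, 1276 and 1211 CPM in infarct 1 to 3, against 385.1, 566.8 and 498.2 in the other myeloid cells. The groups did not overlap, and Cd63 rose by 1.44 on the log2 scale (95% interval 1.219 to 1.669, adjusted p = 3.26e-05). In classical monocyte-like cells it was at 56.28, 75.61 and 60.85 CPM, and fell by 3.91 on the log2 scale (adjusted p = 2.11e-08). Type 2 dendritic-like cells, at 42.57, 49.86 and 39.08 CPM, had the lowest mean, and Cd63 fell there by 4.48 (adjusted p = 6.353e-13). Non-classical monocyte-like cells were at 31.11, 80.26 and 69.49 CPM from 74 UMIs in all, a fall by 4.01 (adjusted p = 3.317e-68). Mature dendritic-like cells, at 969.2 to 1369 CPM, did not pass against the other myeloid cells (log2 change 0.33, adjusted p = 0.09859). The order by mean level ran from Gpnmb and Trem2 macrophages through mature dendritic-like cells, resident-like and other macrophages, granulocyte-like cells and Saa3 and Arg1 macrophages to the monocyte-like and type 2 dendritic-like cells, a 28.22-fold span. The first 4 types of that order overlapped their neighbours between libraries, as did the last 3.

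Within the macrophages, Cd63 was low where Saa3 and Arg1 were high. The Saa3 and Arg1 macrophages were at 278.7, 178.5 and 292.3 CPM, below the other myeloid cells in each library, and Cd63 fell by 2.08 on the log2 scale (adjusted p = 2.539e-06). The macrophages with no further list, at 597.2, 721.4 and 657.2 CPM, were lower than the remaining myeloid cells by a log2 change of −0.64 (adjusted p = 4.325e-09), a remainder that holds the Gpnmb and Trem2 cells. The resident-like macrophages were at 716.7, 992.0 and 574.2 CPM and overlapped the rest, at 845.0, 1031 and 940.1. Their log2 change of −0.51 (adjusted p = 0.001192) was lost under 5 of 13 alternatives, among them without infarct 3, where it was −0.33 (adjusted p = 0.2651). Granulocyte-like cells were at 320.6, 426.5 and 409.7 CPM with a log2 change of −1.59 (adjusted p = 2.211e-25).

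Cd9 had another order, with granulocyte-like cells at the top and classical monocyte-like cells at the bottom. Granulocyte-like cells were at 457.1, 736.7 and 574.4 CPM, above the other myeloid cells in each library, with a log2 change of 0.58 (adjusted p = 0.0007878). That call was lost under 5 of 13 alternatives, and without infarct 2 the change was 0.43 (adjusted p = 0.08183). Gpnmb and Trem2 macrophages were close together at 362.8, 368.3 and 375.4 CPM against 199.0, 238.2 and 259.1, and Cd9 rose by 0.75 on the log2 scale (0.5933 to 0.9018, adjusted p = 0.000123). The Saa3 and Arg1 macrophages were at 313.4, 836.6 and 412.0 CPM, a wide spread, and the log2 change of 0.45 did not pass (adjusted p = 0.07732). It did pass without infarct 1, at 0.65 (adjusted p = 0.003266). The 836.6 CPM came from infarct 2, which held 56 such cells.

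Cd9 fell in classical monocyte-like cells, at 71.76, 51.6 and 49.92 CPM, by 2.47 on the log2 scale (adjusted p = 1.623e-06). Resident-like macrophages were at 125.2, 197.3 and 190.7 CPM, all below the other myeloid cells at 290.3 to 332.3, a fall by 1.08 (adjusted p = 3.015e-12). The same size was found in type 2 dendritic-like cells at 151.9, 152.7 and 169.5 CPM (log2 change −1.04, adjusted p = 3.583e-08). Mature dendritic-like cells ranged from 73.38 to 213.2 CPM and were lower by −1.07 (adjusted p = 2.918e-08). The fall in the other macrophages was smaller, −0.36 (adjusted p = 1.298e-06). For the non-classical monocyte-like cells (258.2, 278.2 and 237.1 CPM) the change of −0.38 (adjusted p = 0.003305) was lost under 6 of 13 alternatives, with −0.41 (adjusted p = 0.03134) without infarct 2 and −0.29 (adjusted p = 0.132) without infarct 3.

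Cd81 was a gene of resident-like and other macrophages and was nearly missing from classical monocyte-like and type 2 dendritic-like cells. The other macrophages were at 382.6, 439.4 and 381.7 CPM against 171.2, 257.1 and 205.8, and Cd81 rose by 0.94 on the log2 scale (adjusted p = 1.449e-07). Resident-like macrophages were at 396.3, 828.9 and 363.2 CPM, with infarct 2 far above the other libraries. Their log2 change was 0.79 (adjusted p = 1.1e-07) with infarct 2 and 0.52 (adjusted p = 0.001297) without it, and it did not pass without the library block (adjusted p = 0.09005). Cd81 in Gpnmb and Trem2 macrophages, at 217.5, 283.0 and 232.6 CPM, overlapped the rest (log2 change −0.11, 95% interval −0.2423 to 0.03167, adjusted p = 0.1987). Both other settings of the gate, 1 more marker (adjusted p = 4.699e-05) and gates on thinned cells (adjusted p = 4e-05), gave a lower level that passed. In classical monocyte-like cells Cd81 was at 19.7, 24.97 and 18.95 CPM, a fall by 3.63 (adjusted p = 3.883e-08). Type 2 dendritic-like cells were at 10.48, 16.62 and 19.26 CPM from 100 UMIs, a fall by 4.17 (adjusted p = 3.387e-11). The remaining types, Saa3 and Arg1 macrophages, granulocyte-like, non-classical monocyte-like and mature dendritic-like cells, lay between 43.79 and 136.4 CPM and fell by 1.30 to 1.72.

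Cd82 and Cd151 gave few UMIs. Cd82 was highest in granulocyte-like cells at 211.5, 116.3 and 130.9 CPM (log2 change 1.71, adjusted p = 5.304e-11) and in non-classical monocyte-like cells at 56.0, 90.96 and 98.1 CPM (1.06, adjusted p = 2.691e-07). Both types lay above the sum of the other myeloid cells in each library, and the granulocyte-like call did not pass with cells thinned to 2000 UMIs (0.95, adjusted p = 0.03253). Cd82 also rose in the other macrophages, by 0.38 (adjusted p = 0.0001323). It fell in classical monocyte-like cells at 13.76, 20.21 and 15.67 CPM (−1.21, adjusted p = 4.364e-05) and in Saa3 and Arg1 macrophages at 18.3, 6.228 and 14.1 CPM (−1.45, adjusted p = 0.0001649). The second fall did not pass without infarct 2 (−1.28, adjusted p = 0.01072). In mature dendritic-like cells the 15 UMIs of Cd82 gave −1.24 (adjusted p = 0.003821), which did not pass without infarct 1 (adjusted p = 0.05763) or without infarct 3 (adjusted p = 0.06653). Gpnmb and Trem2 macrophages, at 33.4, 40.53 and 36.49 CPM, had a log2 change of −0.03 (95% interval −0.1299 to 0.07715, adjusted p = 0.6771). In a further pair of types the test of Cd82 did not pass but was near the threshold. Resident-like macrophages were at −0.66 (adjusted p = 0.01756) and passed under 3 of 13 alternatives, among them without infarct 2 at −0.89 (adjusted p = 0.00336). Type 2 dendritic-like cells were at 0.34 (adjusted p = 0.01153) and passed under 7 of 13, among them without infarct 3 at 0.43 (adjusted p = 0.008967).

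Cd151, the partner of laminin-binding integrins, was at 22.2 to 37.93 CPM in the macrophage types of every infarct library. The other tested myeloid types were at most at 15.48 CPM. Of the small groups that entered no test, endothelial-like cells of the infarct libraries were at 46.39 to 148.9 CPM and B-cell-like cells at 17.39 to 30.46. Gpnmb and Trem2 macrophages were at 30.46, 33.6 and 29.35 CPM against 20.65, 25.36 and 21.65, and Cd151 rose by 0.54 (adjusted p = 0.000287). Classical monocyte-like cells were at 15.48, 14.98 and 13.48 CPM and Cd151 fell by 0.90 on the log2 scale (adjusted p = 0.0002567, and 0.02853 with thinned cells). Type 2 dendritic-like cells were at 6.354, 6.752 and 4.953 CPM, a fall by 2.24 (adjusted p = 2.796e-07) from 42 UMIs. The calls lower in the mature dendritic-like, granulocyte-like and non-classical monocyte-like cells rested on 7, 3 and 14 UMIs, and each did not pass without 2 of the 3 infarct libraries taken one at a time. In the mature dendritic-like cells the adjusted p was 0.01726 without infarct 1 and 0.01399 without infarct 2. In the granulocyte-like cells it was 0.04616 without infarct 2 and 0.0182 without infarct 3, and in the non-classical monocyte-like cells 0.01659 and 0.0287 without the same libraries.

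Of the members restricted to blood cells, Cd37 had the narrowest span of mean level among the infarct types, and Cd53 a 12.29-fold span that rested on 1 type. Cd53 was at 325.0 to 720.4 CPM in 8 of the 9 types, and mature dendritic-like cells stood apart at 61.7, 39.75 and 48.92 CPM. There Cd53 fell by 2.85 on the log2 scale (95% interval −3.269 to −2.424, adjusted p = 5.081e-38). In Saa3 and Arg1 macrophages Cd53 was at 653.2, 720.4 and 473.8 CPM, with a log2 change of 0.56 (adjusted p = 0.008996) that did not pass without infarct 1 (0.51, adjusted p = 0.02565), infarct 2 (0.52, adjusted p = 0.06101) or infarct 3 (0.69, adjusted p = 0.0268). In type 2 dendritic-like cells the change was 0.27 (adjusted p = 0.005501), and 0.32 (adjusted p = 0.0226) and 0.18 (adjusted p = 0.05971) without infarct 1 and infarct 2. In classical monocyte-like cells it was 0.32 with an adjusted p of 0.0101, and 0.34 (adjusted p = 0.009126) without infarct 1. The Gpnmb and Trem2 macrophages (383.0, 370.4 and 325.0 CPM) overlapped the rest, with −0.09 (95% interval −0.1952 to 0.005908, adjusted p = 0.1239).

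Cd37 was highest in granulocyte-like cells at 252.4, 209.4 and 245.0 CPM, and rose there by 0.96 on the log2 scale (adjusted p = 7.24e-06), a call that did not pass with thinned cells (0.76, adjusted p = 0.0105). Gpnmb and Trem2 macrophages came next in the order of means at 104.4, 113.8 and 107.8 CPM, against 79.56, 87.29 and 85.53 in the rest, a rise by 0.44 (adjusted p = 0.000123). Cd37 fell in mature dendritic-like cells at 41.79, 39.75 and 24.46 CPM (−1.35, adjusted p = 5.772e-07, and 0.02948 with thinned cells), in classical monocyte-like cells (−0.76, adjusted p = 8.218e-05) and in type 2 dendritic-like cells (−0.66, adjusted p = 3.733e-05). Its span over the types was 6.669-fold, against 34.27-fold for Cd81. B-cell-like cells, the textbook source of Cd37, were 25, 11 and 44 cells in infarct 1 to 3 and held 525.2, 472.2 and 786.7 CPM, above every myeloid type.

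**Figure D3:**
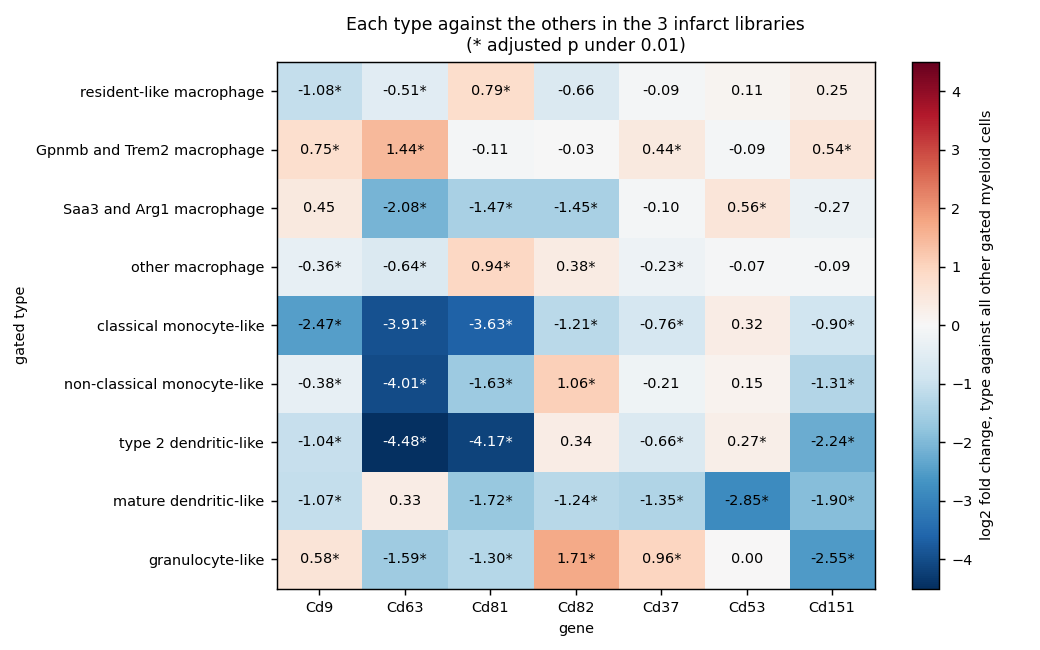
Log2 fold change of each tetraspanin (columns) in each gated type (rows) against all other gated myeloid cells of the same 3 infarct libraries, red for higher and blue for lower, with a star at an adjusted p under 0.01. The deepest blue cells are Cd63 at −4.48 and Cd81 at −4.17 in type 2 dendritic-like cells, and the Cd53 column has its one strong value, −2.85, in mature dendritic-like cells.

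Direct pairs of types showed which populations a member separated. Over 3 pairs chosen for the Gpnmb and Trem2 macrophages, 16 of 21 tests passed, 12 higher and 4 lower. Against resident-like macrophages 3 of 7 members were called, where 9.56% of all genes were, 2 higher (all genes 4.53%) and 1 lower (5.02%). Cd9 was higher by 1.32 on the log2 scale (adjusted p = 1.155e-07), Cd63 higher by 0.93 (adjusted p = 1.613e-05) and Cd81 lower by −0.83 (adjusted p = 0.0001733). Without infarct 3 Cd63 stood at 0.76 (adjusted p = 0.01077), and without infarct 2 Cd81 stood at −0.52 (adjusted p = 0.0009136). Cd82, at 0.63 (adjusted p = 0.0494), passed without infarct 2 at 0.87 (adjusted p = 0.003802). Against the other macrophages 6 of 7 were called (all genes 30.7%), 4 higher (16.0%) and 2 lower (14.7%). Cd63 was higher by 0.94 (adjusted p = 2.538e-11), Cd9 by 0.54 (adjusted p = 1.051e-08), Cd37 by 0.34 and Cd151 by 0.26. Cd81 was lower by −0.69 (adjusted p = 1.247e-10) and Cd82 by −0.29. With thinned cells neither Cd82 (adjusted p = 0.04312) nor Cd151 (adjusted p = 0.08372) passed. Cd53 differed by 0.01, with a 95% interval of −0.05648 to 0.07029.

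Against classical monocyte-like cells all 7 members were called (all genes 33.5%), 6 higher (16.2%) and 1 lower (17.3%). Cd63 was higher in the Gpnmb and Trem2 macrophages by 4.26 on the log2 scale (adjusted p = 1.173e-07), Cd81 by 3.50 (adjusted p = 1.339e-07) and Cd9 by 2.66 (adjusted p = 1.225e-06). Cd82, Cd151 and Cd37 were higher by 1.14, 1.06 and 0.88. Cd53 went the other way, −0.34 (adjusted p = 0.008604), and did not pass without infarct 2 (−0.25, adjusted p = 0.08275) or without infarct 3 (−0.41, adjusted p = 0.02353).

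A further 2 pairs were chosen after the levels by type had been seen, and are descriptions of a difference already in view. Mature dendritic-like cells, which carry Ccr7 and leave tissue for lymph nodes, held 969.2, 1369 and 1120 CPM of Cd63 against 42.57, 49.86 and 39.08 in type 2 dendritic-like cells. The log2 change was 4.85 (95% interval 4.502 to 5.201). Cd81 was higher by 2.50, Cd53 lower by −3.02 and Cd82 lower by −1.51, and Cd9 differed by 0.02 (−0.4005 to 0.4411). With 4 of 6 tested members past the threshold, the share of all genes was 27.9% (14.1% higher and 13.8% lower, with 2 members in each direction). Cd151 did not pass the filter on low counts. The Cd82 call did not pass without infarct 1. Non-classical against classical monocyte-like cells had 3 of 7 members called (all genes 18.2%), each of them higher (9.29%, and 8.89% of genes lower). Cd9, at 258.2, 278.2 and 237.1 CPM against 71.76, 51.6 and 49.92, was higher by 2.13. Cd82 was higher by 2.25 and Cd81 by 2.03, and Cd63 differed by −0.12 (−0.5614 to 0.3155).

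Among all macrophages, cycling cells and cells with an interferon response were set against those without any marker of the state. The macrophage types were pooled on both sides, and the part of their makeup in these differences was not tested. Cycling macrophages (at least 3 of Mki67, Top2a, Birc5, Cdk1, Ccnb2 and Ube2c) were 180, 277 and 304 cells in infarct 1 to 3. Of the members, 1 rose (all genes 17.1%) and 4 fell (12.4%), with 29.5% of all genes called. Cd9 was at 439.7, 402.3 and 483.9 CPM in cycling and 318.3, 336.9 and 337.1 in non-cycling macrophages, a rise by 0.35 (adjusted p = 0.002464). Cd63 was at 809.3, 723.6 and 642.9 CPM against 991.9, 1135 and 1042, a fall by 0.61 on the log2 scale (adjusted p = 0.0002785). Cd82 fell by 0.80, Cd37 by 0.63 and Cd53 by 0.44, and Cd53 did not pass without infarct 2 (−0.40, adjusted p = 0.0114) nor Cd82 with thinned cells (adjusted p = 0.01225). Cd9 did not pass when the gates were set on cells thinned to one depth (adjusted p = 0.1128). Interferon-response macrophages (at least 3 of Ifit1, Ifit2, Ifit3, Rsad2, Cxcl10 and Isg15) were 631, 1219 and 747 cells. Only Cd9 of the 7 was called, with 10.3% of all genes (6.97% higher and 3.33% lower), at 266.2, 271.2 and 265.4 CPM against 347.5, 366.6 and 365.3, a fall by 0.35 (adjusted p = 3.146e-06).

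**Figure D4:**
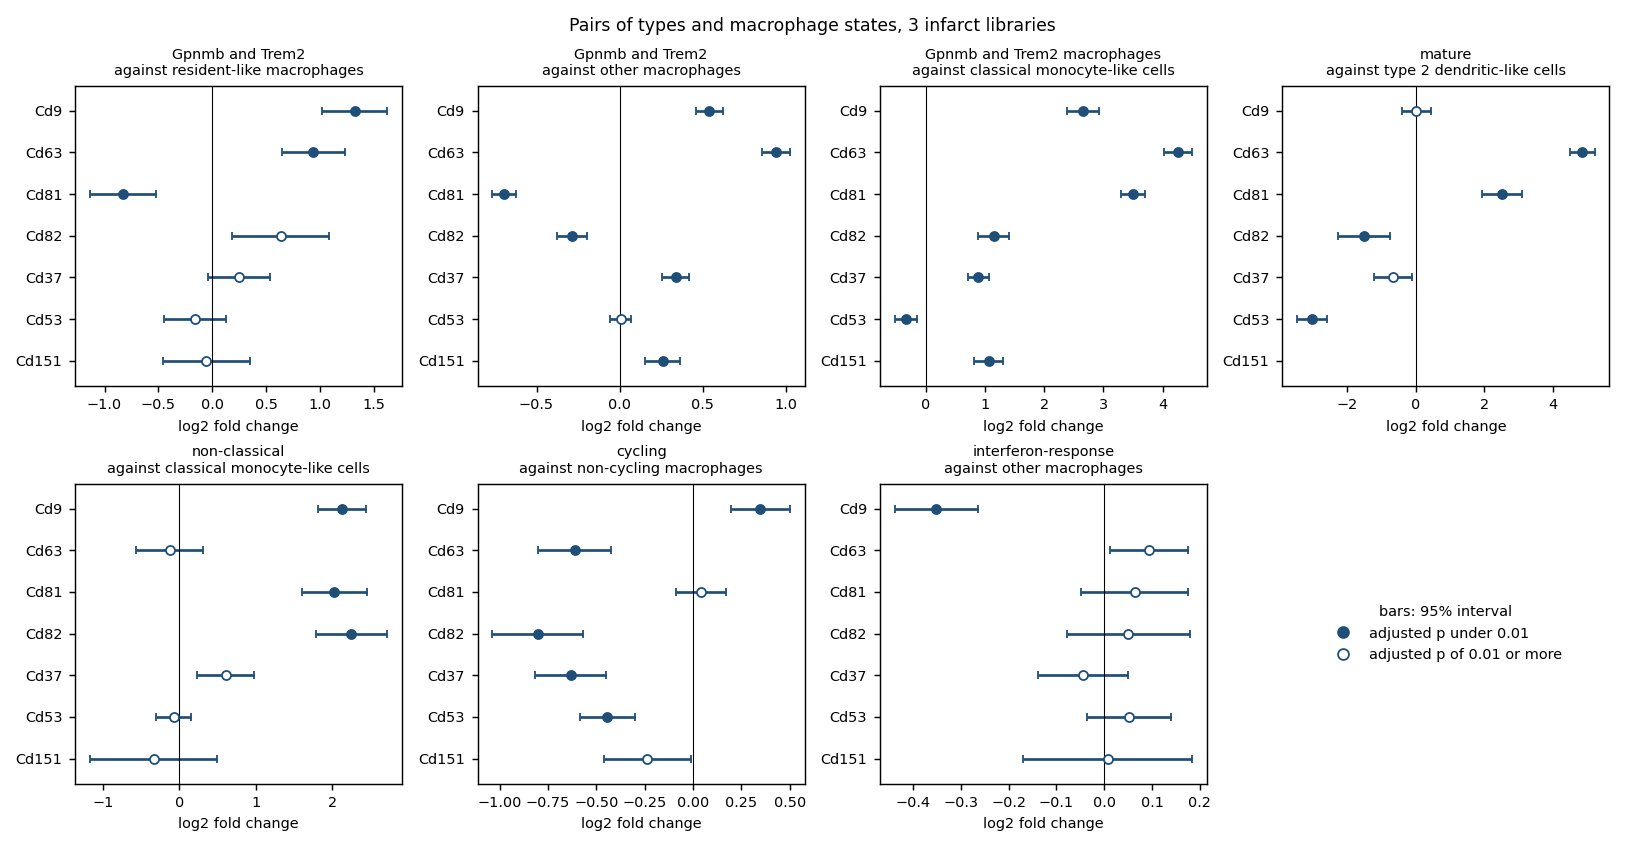
Log2 fold changes with 95% intervals of the 7 tetraspanins for 5 pairs of types and 2 macrophage states in the 3 infarct libraries, filled where the adjusted p was under 0.01; each panel has its own axis. Cd63 and Cd81 lie on opposite sides of 0 in the pairs with resident-like and other macrophages, and on the same side against classical monocyte-like cells.

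Baseline and infarct levels were then set side by side within each type that held at least 20 cells in every library, with no test. A gated type need not hold the same kinds of cell in both groups, and the part of this was not tested. The other macrophages are the cells left over by the lists. The genes that led in them, gate markers aside, differed between baseline and infarct. Their median depth was 5398 UMIs a cell at baseline and 6915 to 6945 in the infarct libraries. Cd63 was higher after infarction in the other macrophages, at 597.2, 721.4 and 657.2 CPM against 364.8 at baseline (95% binomial interval 355.8 to 373.9), 1.805-fold by the mean. In Gpnmb and Trem2 macrophages it was at 1211 to 1276 CPM against 1040 (1003 to 1078), 1.189-fold. The resident-like macrophages were at 574.2 to 992.0 CPM against 569.3, where the lowest infarct library lay inside the interval of the baseline count (559.2 to 579.5).

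Cd81 in the other macrophages was at 382.6, 439.4 and 381.7 CPM after infarction and at 862.3 at baseline, 2.149-fold higher in the baseline library. That was the 1 member of 7 past 2-fold in this type, where 6.96% of all genes were. In resident-like macrophages Cd81 was at 363.2 to 828.9 CPM against 907.6 (894.9 to 920.5). In Gpnmb and Trem2 macrophages, by contrast, it was at 217.5 to 283.0 CPM against 212.9 at baseline.

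Cd9 differed in opposite directions in these types. In resident-like macrophages it was at 125.2, 197.3 and 190.7 CPM against 82.0 at baseline (78.2 to 85.93), 2.086-fold and the 1 member past 2-fold there, with 6.61% of all genes. In Gpnmb and Trem2 macrophages it was at 362.8, 368.3 and 375.4 CPM against 682.2 (652.7 to 712.8), 0.5407 of the baseline value. No member passed 2-fold in that type, and 5.74% of all genes did. The 204 baseline cells of that type had a median of 14121.5 UMIs against 9476 to 9806 in the infarct libraries, and the part of this depth gap in the difference was not tested. Thinned to 2000 UMIs a cell, 60.29% of the baseline cells and 40.49 ± 1.14% of the infarct cells (SD, n = 3) still held a Cd9 UMI.

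Cd53 was higher after infarction in most types. It was at 325.0 to 383.0 CPM against 232.6 in Gpnmb and Trem2 macrophages, at 336.3 to 387.0 against 258.5 in the other macrophages and at 389.1 to 525.6 against 243.6 in type 2 dendritic-like cells. In resident-like macrophages it was at 375.6 to 607.9 CPM against 273.7, and in classical monocyte-like cells at 374.9 to 506.7 against 320.6. Cd151 was level in the macrophage types, for example 35.5 to 37.93 CPM against 36.25 in resident-like macrophages. Cd37 in Gpnmb and Trem2 macrophages was at 104.4 to 113.8 CPM against 77.09, and Cd82 at 33.4 to 40.53 against 22.51. In granulocyte-like cells, where 39.6% of all genes passed 2-fold, 1 of 7 members did, Cd9 at 457.1 to 736.7 CPM against 292.0. In non-classical monocyte-like cells no member passed 2-fold with all libraries on one side (all genes 3.92%), and Cd9 was at 237.1 to 278.2 CPM against 282.9.

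The differences in Cd63 and Cd81 between baseline and infarct followed the level in the whole library in classical monocyte-like cells. Classical monocyte-like cells held 28.19 CPM of Cd63 at baseline and 56.28, 75.61 and 60.85 after infarction, and 50.12 CPM of Cd81 at baseline and 19.7, 24.97 and 18.95 after infarction. With Cd9 (26.28 against 49.92 to 71.76 CPM), 3 of 7 members passed 2-fold there (all genes 6.85%). As a percent of the level over all cells of the same library, Cd63 was at 7.854% at baseline and 7.549% after infarction (7.063 to 7.834 over the 3 libraries), and Cd81 at 8.237% and 8.654%. Cd9 was at 19.51% after infarction, and over all cells it was also higher in the infarct libraries. In non-classical monocyte-like cells Cd81 did not follow the library, with 13.32% of its level at baseline and 36.87% after infarction. In type 2 dendritic-like cells, Cd63 was at 11.4 CPM at baseline and 39.08 to 49.86 after infarction, and Cd81 at 59.39 and 10.48 to 19.26. With Cd151, whose baseline value rests on few UMIs (2.999 CPM, interval 0.9739 to 7.00), 3 members passed 2-fold (all genes 9.49%).

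The percent of the library level in type 2 dendritic-like cells was 3.176 at baseline and 5.188 after infarction for Cd63, and 9.761 and 6.246 for Cd81. Transcripts that mark macrophages were also present in these cells. Apoe was at 2.121% of its library level at baseline and 4.534% after infarction, Pf4 at 1.386% and 3.565%, and Ms4a7 at 2.614% and 3.48%. The baseline percent of Cd81 was above all 3 of these. In classical monocyte-like cells after infarction, Apoe was at 17.25%, Pf4 at 10.62% and Ms4a7 at 6.722%. No expression and no change with infarction is read from Cd63 and Cd81 at these levels, and no change from Cd9 in classical monocyte-like cells. The part of free RNA in the droplets was not tested. In mature dendritic-like cells after infarction, Cd63 was at 135.1% of its library level and Apoe at 4.271%.

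**Figure D5:**
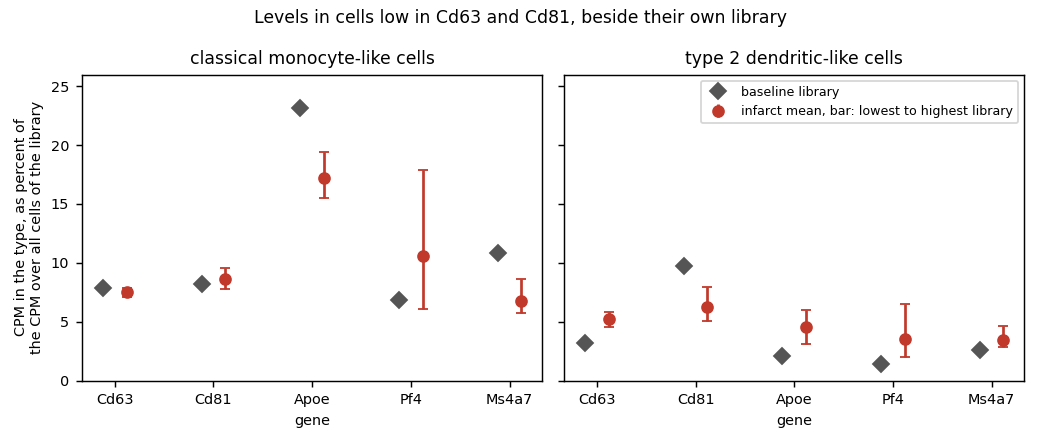
Level of Cd63, Cd81 and 3 macrophage genes in classical monocyte-like (left) and type 2 dendritic-like cells (right), as a percent of the level over all cells of the same library; diamonds are the baseline library, points the infarct mean, and bars run from the lowest to the highest infarct library. In classical monocyte-like cells Cd63 stood at 7.854% at baseline and 7.549% after infarction although its CPM in the libraries differed.

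Shares of cells with at least 1 UMI were compared after each cell was thinned to 2000 UMIs, with shallower cells left out. Cd63 was detected in 82.67 ± 1.232% of Gpnmb and Trem2 macrophages of the infarct libraries (SD, n = 3) and in 7.457 ± 1.637% of classical monocyte-like cells. Unthinned, these shares were 96.91% and 19.62%. The baseline library had 67.16% and 3.737%. Cd9 was detected in 40.49 ± 1.14% and 6.736 ± 0.4054% of the same types after infarction, and unthinned in 74.51% and 15.99%. Cd53 was found in 49.24% of Gpnmb and Trem2 macrophages, 57.32% of classical monocyte-like cells and 8.729% of mature dendritic-like cells. Types that should lack Cd53 and Cd37 also held some UMIs of them. In baseline endothelial-like cells (73 cells, median 3795 UMIs) Cd53 and Cd37 were each found in 4.11% (exact binomial interval 0.8556 to 11.54 for Cd37). In infarct fibroblast-like cells (41 cells, median 17561 UMIs) Cd53 was found in 9.756% and Cd37 in 2.439%. In infarct endothelial-like cells (18 cells, median 6234 UMIs) the shares were 22.22% and 11.11%. The Cd53 share of mature dendritic-like cells lay within the range of these types. No expression is read from it, and the part of free RNA in it was not tested. Cd37 was found in 19.07% of Gpnmb and Trem2 macrophages and 84.21% of baseline B-cell-like cells.

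Gpnmb and Trem2 macrophages with a Cd9 UMI held Cd63 slightly more often than those without. At 2000 UMIs a cell, Cd63 was found in 83.91, 85.40 and 84.04% of the cells with a Cd9 UMI and in 80.42, 83.18 and 80.76% of those without, in infarct 1 to 3. These shares are given as a description.

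Of 24 further tetraspanin genes, 14 passed the filter on low counts in each of the 9 type comparisons. In Gpnmb and Trem2 macrophages 3 rose and 4 fell, and their median log2 change of −0.16 lay beside −0.00096 over all genes. Tspan4, known from the migrasomes of moving cells, was at 74.72 ± 5.427 CPM against 31.77 ± 4.442 (SD, n = 3; log2 change 1.31, adjusted p = 8.352e-06). Tspan13 was lower, at 26.86 ± 3.951 against 69.81 ± 5.886 CPM (−1.31, adjusted p = 0.0001004), and Tspan17 and Tspan3 rose by 0.50 and 0.36. Tspan4 fell in classical monocyte-like (−3.37), non-classical monocyte-like (−3.86), type 2 dendritic-like (−3.59), mature dendritic-like (−3.75) and granulocyte-like cells (−3.19). Tspan13 rose in those same 5 types, by 1.34, 1.63, 3.19, 1.82 and 1.60, and reached 325.4 ± 66.18 CPM in type 2 dendritic-like cells.

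Mature dendritic-like cells had 3 of the 14 further tetraspanins higher and 3 lower. Tspan3 was at 605.9 ± 142.3 CPM against 48.15 ± 6.136 (SD, n = 3; log2 change 3.68, adjusted p = 1.911e-107). Tspan33, one of the tetraspanins that bind the protease ADAM10, was at 146.1 ± 37.49 CPM against 4.121 ± 0.6398 (5.16, adjusted p = 1.019e-69). Tspan14, which also binds ADAM10, fell by 3.64 on the log2 scale in these cells. In Saa3 and Arg1 macrophages 4 rose and 2 fell, with Tspan5 at 1.38, Tspan14 at 1.35, Tspan32 at 1.14 and Tspan13 at −1.92. Resident-like macrophages had 2 higher and 1 lower, with Tspan14 at 0.63 and Tspan13 at −1.66. The counts were 2 higher and 5 lower in the other macrophages, 2 and 4 in classical monocyte-like cells, 2 and 3 in non-classical monocyte-like cells, 4 and 5 in type 2 dendritic-like cells and 2 and 4 in granulocyte-like cells.

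Of 9 genes for proteins that bind tetraspanins, 6 or 7 were tested per type. The integrin subunit Itga6, a partner of CD151, rose with it in Gpnmb and Trem2 macrophages (0.63, adjusted p = 0.001379) and fell in classical monocyte-like (−3.0), non-classical monocyte-like (−3.47), type 2 dendritic-like (−3.31) and granulocyte-like cells (−3.20). In resident-like macrophages Itga6 was lower (−1.32), whereas Cd151 at 35.5 to 37.93 CPM had a log2 change of 0.25 (adjusted p = 0.5052). Itga4, a subunit that pairs with Itgb1, ran the other way, −0.67 in Gpnmb and Trem2 macrophages and 1.43, 2.54 and 2.46 in classical monocyte-like, non-classical monocyte-like and mature dendritic-like cells. Adam10 was at 366.5 ± 40.0 CPM in Saa3 and Arg1 macrophages against 120.7 ± 14.22 (SD, n = 3; log2 change 1.44, adjusted p = 2.083e-06), where 4 of 6 partners rose and none fell.

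Of 6 genes for vesicle and late endosome proteins often read with CD63, 3 rose and none fell in Gpnmb and Trem2 macrophages. Lamp1, a main protein of the lysosomal membrane, rose by 0.61 (adjusted p = 5.347e-05), Sdcbp, whose product syntenin binds CD63, by 0.48 (adjusted p = 0.0002075), and Lamp2 by 0.19 (adjusted p = 0.009955). Their median was 0.16 against −0.00096 over all genes. In type 2 dendritic-like cells 1 of the 6 rose and 4 fell, with Lamp1 at 211.2 ± 10.48 CPM against 1077 ± 47.38 (SD, n = 3; log2 change −2.38, adjusted p = 1.033e-11) and Flot1 higher by 1.56. Mature dendritic-like cells had high Cd63 but none of the 6 higher and 2 lower, Sdcbp by −2.59 and Lamp2 by −2.08. In cycling macrophages 4 of 6 fell and none rose.

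The patterns of the members over 27 sums (9 types in 3 infarct libraries) were compared as Pearson's r of log2(CPM + 10), a description without a test, since sums of a type share cells of a kind and sums of a library share its preparation. Cd63 and Cd81 had the highest r of any pair of members, 0.7448, and Cd63 and Cd53 the lowest, −0.465. Cd82 and Cd37 had an r of 0.7069, and Cd9 and Cd37 of 0.674. Among 5828 genes, those most like Cd63 were Rgs10 (0.8785), Sbf2 (0.8751) and Atxn1 (0.8617), and those most like Cd81 were Ulk2 (0.8833), Slco2b1 (0.8496) and Fcrls (0.8375). Cd9 had no close match, with Pdlim7 at 0.7463, Sun2 at 0.7353 and Cpd at 0.7245. For Cd53 they were Shisa5 (0.9614), Alox5ap (0.9604) and AB124611 (0.9274). For Cd37 they were Cpeb2 (0.951), Txnip (0.8932) and Ssbp3 (0.8842), for Cd82 Retreg1 (0.9409), Lcp1 (0.9291) and Zfp36 (0.89), and for Cd151 Maf (0.9553), P2rx7 (0.9548) and Lgmn (0.954).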

How the data were processed

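Single-cell 3′ libraries were made from 1 baseline pool and 3 infarcted hearts. The deposited values are UMI counts per gene and barcode, which the authors made with Cell Ranger on mm10. The file header gives version 3.1.0 and the submitters' processing notes give 3.0.1, and the matrices hold the barcodes that Cell Ranger called as cells. The study's stated filter (500 to 40000 UMIs, more than 200 genes) was then applied to each barcode. Counts were summed per library and type and given as CPM without mitochondrial genes. Total depth was 71093963 to 97944428 UMIs per library. Binomial intervals are exact and cover counting error only.

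Marker lists were fixed with the design, and the scoring rule (at least 3 markers of a list and more than of any competing list) was set after the marker counts had been seen. The members, the lists of other genes and the markers were chosen with earlier results of these data known. No doublet caller was run, and an alternative left out cells with over 20000 UMIs or at least 2 markers of a non-myeloid type. Tests used edgeR 4.0.16 in R 4.3.3 (quasi-likelihood, TMM scaling, filterByExpr, two-sided, with the library as a block) on 6 sums from the 3 infarct libraries. Benjamini-Hochberg adjustment ran over all genes tested, and a call needs an adjusted p under 0.01. The replicate number pairs the sums by design, since the type and its remainder are cells of 1 heart, and hearts are the replicates. The test script was checked on simulated data. DESeq2 1.42.0 was an alternative. Summaries used Python 3.11.15, numpy 2.4.6, pandas 2.3.3 and scipy 1.17.1.

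The genes named are the 7 members, up to 5 other tetraspanins and up to 3 partner and 3 vesicle genes per comparison (past the threshold, at least 20 CPM on average, largest change first), and the 3 genes most like each member. Apoe, Pf4 and Ms4a7 fall outside this rule and were chosen as macrophage genes after values had been seen. The library-totals scaling and 2 pairs of types were also added after seeing the data. Types were tested only with at least 20 cells in each infarct library.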

Additional observations from a re-analysis of the deposited data

Results flagged for a closer look

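In 11 contrasts the ratio of a tetraspanin in the single baseline library had the opposite sign to that in all 3 infarct libraries, and the difference was not tested. The share of all genes with such a change of sign was not counted, so the 11 are not read as particular to the members. Some baseline ratios were very small, such as 0.004649 for Cd37 in interferon-response macrophages and −0.02692 for Cd82 in the other macrophages. No direction is read from such values. Values are log2 ratios of CPM, numerator over denominator. Where a ratio is against other myeloid cells, that remainder differed in makeup between the groups. Gpnmb and Trem2 macrophages were 1.993% of baseline and 41.49% of infarct cells, and resident-like macrophages 27.02% and 0.8036%. The part of this in the signs was not tested. For Cd63 in resident-like macrophages against other myeloid cells, the ratio was 1.008 at baseline and −0.7113 to −0.05514 after infarction. The resident-like macrophages themselves were at 569.3 CPM at baseline and 574.2 to 992.0 after infarction. For Cd37 in Gpnmb and Trem2 macrophages it was −0.3077 at baseline and 0.3337 to 0.3922 after infarction.

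Cd9 had 3 of the 11. The ratio was 0.7305 at baseline in the other macrophages (infarct −0.3755 to −0.3458), 0.7201 in non-classical monocyte-like cells (−0.4815 to −0.1616) and 0.159 in type 2 dendritic-like cells (−1.1 to −0.9597).

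Cd82 also had 3. The baseline ratio was −0.02692 in the other macrophages (infarct 0.2444 to 0.5113), −0.07527 in type 2 dendritic-like cells (0.2418 to 0.4295) and −0.5197 in Gpnmb and Trem2 against resident-like macrophages (0.02492 to 0.8468). The remaining 3 were Cd53 in type 2 dendritic-like cells at −0.2058 (0.2037 to 0.4739), Cd81 in cycling against non-cycling macrophages at −0.3194 (0.1017 to 0.1145) and Cd37 in interferon-response macrophages at 0.004649 (−0.1822 to −0.07422).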

How the results depend on the processing

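Of 111 member tests, 74 were called and 45 calls were kept under all 13 alternatives. Leaving aside the 2 pairs added later, the calls numbered 45 for types, 16 for pairs and 6 for states, and 43, 16 and 6 with library totals only (chosen after seeing the data), 38, 15 and 6 with DESeq2's Wald test and 38, 13 and 5 with cells thinned to 2000 UMIs. Leaving out 1 infarct library gave 38 to 43, 14 to 16 and 5 to 6. Without the replicate block the counts were 34, 11 and 6. Calls lost without the block but kept with each library left out were Cd81 in resident-like macrophages (adjusted p = 0.09005), Cd151 in Gpnmb and Trem2 macrophages (0.01304) and, in the other macrophages, Cd9 (0.02908), Cd82 (0.04834) and Cd37 (0.1354), and in the pairs Cd81 against resident-like (0.05322) and Cd82 (0.05197), Cd37 (0.02651) and Cd151 (0.1241) against other macrophages. The 15 values with no adjusted p, all but 1 for Cd151, were left out. Over all cells, 2 members were past 2-fold between infarct and baseline under every alternative run.

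Signs changed in 20 tests and 46 values, none of a called test, and the cause was not tested. With library totals only they were Cd37 in resident-like (0.0853) and Saa3 and Arg1 (0.02654), Cd53 in Gpnmb and Trem2 against other macrophages (−0.01893), Cd9 in mature against type 2 dendritic-like cells (−0.1341) and, in interferon-response macrophages, Cd81 (−0.01183), Cd82 (−0.02498), Cd53 (−0.02476) and Cd151 (−0.06751). With thinned cells they were Cd53 (−0.07162) and Cd151 (−0.007172) in resident-like, Cd53 in non-classical monocyte-like (−0.01866) and granulocyte-like cells (−0.1165), Cd151 (0.1966) against resident-like and Cd53 (−0.01704) against other macrophages, Cd81 in cycling (−0.03105), Cd53 in interferon-response macrophages (−0.03649) and Cd9 between the dendritic-like types (−0.3795). With gates on thinned cells they were Cd37 in resident-like (0.0129) and Cd151 in other macrophages (0.03778), Cd53 in granulocyte-like cells (−0.133), Cd151 in interferon-response macrophages (−0.04888) and between the monocyte-like types (0.01947). Without possible doublets they were Cd82 in Gpnmb and Trem2 macrophages (0.03204), Cd53 in granulocyte-like cells (−0.04202), Cd151 with interferon response (−0.01243) and Cd9 between the dendritic-like types (−0.2792). With 1 more marker per gate they were Cd53 in granulocyte-like cells (−0.03539), Cd151 against resident-like (0.08013), Cd53 against other macrophages (−0.0004904) and Cd151 with interferon response (−0.06593). With no filter they were Cd53 in granulocyte-like cells (−0.01637), Cd81 in cycling macrophages (−0.01071) and Cd9 between the dendritic-like types (−0.1088), with the Wald test that same Cd9 value (−0.03774), and without the block Cd53 in granulocyte-like cells (−0.01194). With 1 infarct library left out, ranges crossing 0 were Cd53 in resident-like (−0.04566 to 0.246), granulocyte-like cells (−0.03844 to 0.05178), against resident-like (−0.2832 to 0.008537) and between the monocyte-like types (−0.1724 to 0.04674), Cd37 in Saa3 and Arg1 (−0.4262 to 0.1053), Cd81 (−0.008042 to 0.1687) and Cd151 (−0.1368 to 0.1463) with interferon response, Cd9 between the dendritic-like types (−0.2656 to 0.3427) and Cd63 between the monocyte-like types (−0.3242 to 0.08307). Between infarct and baseline, of the values with all infarct libraries on one side only Cd37 turned, in resident-like with thinned cells (0.02493) and in type 2 dendritic-like cells with TMM scaling (0.007881) and thinned cells (0.09911), while values of Cd9, Cd82, Cd37 and Cd151 with libraries on both sides also crossed 0.

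In Gpnmb and Trem2 macrophages a Cd9 UMI was found in 25.77% of cells at 1000 UMIs, 56.3% at 4000 and 74.51% unthinned, and Cd63 in 63.75, 93.97 and 96.91%. In classical monocyte-like cells Cd9 had 4.362, 10.68 and 15.99% and Cd63 4.854, 12.01 and 19.62%.

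Without the block, all-gene calls went from 3825 to 865 (Gpnmb and Trem2 against other), 1134 to 734 (against resident-like), 2988 to 1219 (against the rest), 1254 to 408 (interferon response), 3735 to 625 (other macrophages) and 1406 to 462 (resident-like). Thinned cells took 3825 to 1947, 1134 to 597, 1254 to 651, 3735 to 2028, 1406 to 559, 4058 to 2532 (Gpnmb and Trem2 against classical), 3932 to 2501 (classical), 3624 to 1566 (cycling), 2168 to 1123 (mature against type 2), 2969 to 1542 (mature), 1497 to 937 (non-classical against classical), 2650 to 1734 (non-classical) and 4653 to 2768 (type 2). The Wald test took 2092 to 1357 (granulocyte-like), 3825 to 2115, 1254 to 709, 2168 to 1370, 1497 to 929, 3735 to 2200 and 1406 to 839, and leaving out possible doublets took 1406 to 866. Leaving out infarct 1 took 1134 to 726, 1406 to 753 and 4653 to 3000. Leaving out infarct 2 took 3825 to 2546, 2491 to 843 (Saa3 and Arg1), 3624 to 2127 and 1497 to 754. Leaving out infarct 3 took 1134 to 473, 4058 to 2202, 2988 to 1898, 2491 to 1587, 3932 to 2553 and 1406 to 743. With library totals only, the share of higher calls went from 48.08 to 70.73% in resident-like, 47.32 to 31.7% in Gpnmb and Trem2 macrophages, 53.71 to 65.42% in Saa3 and Arg1, 37.52 to 57.25% in granulocyte-like cells, 47.44 to 23.38% in Gpnmb and Trem2 against resident-like, 67.62 to 40.43% with interferon response and 50.6 to 40.54% in mature against type 2. The all-gene median moved from −0.03 to 0.14 in resident-like, −0.06 to 0.06 in Saa3 and Arg1, −0.38 to −0.07 in granulocyte-like cells, 0.02 to −0.18 in Gpnmb and Trem2 against resident-like and −0.08 to −0.24 in mature against type 2.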

Other observations

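Small gated groups that entered no test also held tetraspanins. Type 1 dendritic-like cells (34 cells at baseline and 28, 10 and 18 in infarct 1 to 3) held Cd63 at 7.593 CPM at baseline, from 3 UMIs, and at 164.6, 188.4 and 204.4 CPM after infarction. Fibroblast-like cells of the infarct libraries (31, 3 and 8 cells) held Cd63 at 1380, 1648 and 1186 CPM. Endothelial-like cells of the baseline library (137 cells) held 802.3 CPM of Cd81 and 113.6 CPM of Cd151 and 25.0 CPM of Cd37. B-cell-like cells of the baseline library (82 cells) held 887.8 CPM of Cd37 and 54.73 CPM of Cd63, and those of the infarct libraries held 248, 304.6 and 252.1 CPM of Cd63. As a percent of the library level, Cd63 in these infarct cells was at 31.66%, Apoe at 41.04%, Pf4 at 51.05% and Ms4a7 at 44.02%. No expression and no change with infarction is read from this Cd63, and the part of free RNA or doublets was not tested. Mature dendritic-like cells of the baseline library were 10 cells with 717.6 CPM of Cd63.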
